A study of Mus musculus with 6 samples.

Results

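The regions described are open-chromatin peaks of at least 400 bp that lay inside genes and were listed in Smc3 heterozygous cells without a counterpart in Smc3 wild-type cells. They were chosen from the deposited peak lists by 4 conditions. The peak lay on chromosomes 1 to 19, it was 400 bp wide or more, it overlapped no Smc3 wt peak by even 1 bp, and its summit lay inside a protein-coding gene over 1 kb from every end of such a gene. These conditions held for 2501 of the 47233 Smc3 het peaks (5.30%), or 7.59% of the 32964 peaks with no Smc3 wt counterpart. They made up 47.0% of the 5318 Smc3 het peaks of such width and position, where 69.8% of all Smc3 het peaks lacked a counterpart. Together they covered 1422.8 kb and lay in 2012 of 20665 protein-coding genes (9.74%). Of the regions 2465 lay in 1 gene, 35 in 2 overlapping genes and 1 in 3. The list, the width and the position chose the regions, so their absence from the Smc3 wt list is not a finding.

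Open DNA, which a transposase cuts and tags in the ATAC-seq assay, was mapped in bone marrow cells depleted of mature lineages and labelled HSPC, for stem and progenitor cells. Of 6 libraries, 3 had the genotype inv(16);Smc3 D/+ (Smc3 het) and 3 had inv(16);Smc3 +/+ (Smc3 wt). Both groups thus carried inv(16), named after an inversion of human acute myeloid leukemia that fuses a core-binding factor gene to a myosin gene. Both were also transduced with virus and given tamoxifen to induce Cre, and the sources used here do not name the promoter that drives Cre. What the authors deposited was 1 peak list per genotype without values for single libraries. Depth is therefore unknown, and no difference in the text could be checked over replicates or carries a p-value. The lists differed in background and in width. The caller's genome-wide background was 8.65 for Smc3 wt against 10.6 for Smc3 het. The narrowest Smc3 wt peak spanned 208 bp, with a median width of 418 bp, where the Smc3 het list had 138 and 318 bp. The part of these differences in which regions were chosen was not tested. Exact (Clopper-Pearson) 95% intervals are attached to shares and cover counting error only.

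Open chromatin inside genes includes enhancers, which transcription factors hold open in a cell-type-specific way, and internal promoters, where shorter transcripts of a gene begin. Cohesin, the ring complex of which Smc3 is a subunit, extrudes loops of DNA that bring such elements to promoters. In blood progenitors, factors of the ETS, RUNX, GATA, C/EBP and AP-1 families bind many of these elements.

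A minority of the regions covered an annotated internal transcript start, and 7 of these starts are printed to show what kind of DNA lay under them. They were chosen after the values were seen, from the 51 genes with a start window of their own that lay whole under the peak. Each window runs from 250 bases before the start to 50 after it, 300 bases in all, 5′ to 3′ on the strand of the gene, from RefSeq on GRCm38.p6. Capitals mark matches to 6 short motifs searched on both strands, with overlaps allowed. The ETS letters are GGAAGT and those of RUNX are TGTGGT. Factors of the GATA family are represented by AGATAA and AP-1 by TGANTCA. For C/EBP the letters are TTGCNNAA, and the core of the CTCF motif is AGGGGGC. Pdpk1 held the most significant of all regions over an internal start. The windows of Idh2 and Arhgef3 held none of the motifs. Slc3a2, Atp8b4, Elmo2 and Specc1 show windows with several.
Pdpk1, chr17:24141545-24141844, minus strand: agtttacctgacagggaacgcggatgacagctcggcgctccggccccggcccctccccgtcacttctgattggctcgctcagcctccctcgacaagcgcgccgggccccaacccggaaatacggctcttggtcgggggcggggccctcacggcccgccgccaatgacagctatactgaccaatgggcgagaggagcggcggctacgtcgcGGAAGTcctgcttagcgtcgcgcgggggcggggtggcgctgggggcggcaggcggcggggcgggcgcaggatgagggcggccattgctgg
Idh2, chr7:80115301-80115600, minus strand: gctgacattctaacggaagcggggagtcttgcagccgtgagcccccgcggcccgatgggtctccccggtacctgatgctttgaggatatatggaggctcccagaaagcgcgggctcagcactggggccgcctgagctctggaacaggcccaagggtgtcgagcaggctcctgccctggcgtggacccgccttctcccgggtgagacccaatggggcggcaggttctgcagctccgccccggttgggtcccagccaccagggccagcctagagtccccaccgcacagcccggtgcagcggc
Arhgef3, chr14:27335787-27336086, plus strand: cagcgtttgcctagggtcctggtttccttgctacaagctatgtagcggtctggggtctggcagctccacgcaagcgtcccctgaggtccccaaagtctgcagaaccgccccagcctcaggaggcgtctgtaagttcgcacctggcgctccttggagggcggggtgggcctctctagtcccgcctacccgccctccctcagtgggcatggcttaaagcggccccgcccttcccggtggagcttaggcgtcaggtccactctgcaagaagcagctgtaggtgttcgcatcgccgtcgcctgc
Slc3a2, chr19:8713848-8714147, minus strand: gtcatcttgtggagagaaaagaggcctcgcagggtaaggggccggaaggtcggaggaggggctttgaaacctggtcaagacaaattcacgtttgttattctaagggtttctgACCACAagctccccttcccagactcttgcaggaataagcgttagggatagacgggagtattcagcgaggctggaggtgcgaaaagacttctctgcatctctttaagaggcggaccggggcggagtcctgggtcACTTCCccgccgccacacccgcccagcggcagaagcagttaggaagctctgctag
Atp8b4, chr2:126491504-126491803, minus strand: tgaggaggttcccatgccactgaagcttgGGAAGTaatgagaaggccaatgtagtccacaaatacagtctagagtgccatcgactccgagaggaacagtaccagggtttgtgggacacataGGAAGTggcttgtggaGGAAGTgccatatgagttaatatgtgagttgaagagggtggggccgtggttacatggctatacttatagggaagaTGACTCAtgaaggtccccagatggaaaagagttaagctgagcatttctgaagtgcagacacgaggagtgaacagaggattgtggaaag
Elmo2, chr2:165320777-165321076, minus strand: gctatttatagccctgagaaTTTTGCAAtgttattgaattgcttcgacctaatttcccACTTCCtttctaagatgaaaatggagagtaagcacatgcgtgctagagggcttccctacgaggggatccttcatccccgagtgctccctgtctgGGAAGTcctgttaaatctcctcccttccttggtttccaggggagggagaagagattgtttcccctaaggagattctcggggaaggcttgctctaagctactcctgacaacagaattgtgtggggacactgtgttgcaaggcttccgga
Specc1, chr11:62076774-62077073, plus strand: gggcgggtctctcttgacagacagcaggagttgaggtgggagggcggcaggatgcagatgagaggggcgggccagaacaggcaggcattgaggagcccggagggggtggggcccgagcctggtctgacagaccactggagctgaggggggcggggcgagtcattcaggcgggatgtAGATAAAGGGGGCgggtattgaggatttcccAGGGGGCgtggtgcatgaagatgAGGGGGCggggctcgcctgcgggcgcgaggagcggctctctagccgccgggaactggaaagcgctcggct

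The 7 windows differed in base composition. The windows of Pdpk1, Idh2, Specc1 and Arhgef3 were rich in G and C, at 71.7%, 68.3%, 67.3% and 64.3%, with 37, 20, 20 and 19 CpG pairs. Those of Elmo2 and Atp8b4 held 48.7% and 48.0% G and C with 6 and 4 CpG pairs, and Slc3a2 lay between at 56.0% and 15. The ETS letters stood 3 times in the Atp8b4 window, 2 times in that of Elmo2 and once each in those of Pdpk1 and Slc3a2. A match is a description of letters and not a site of binding.

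The regions over these starts differed in strength. Pdpk1, which encodes a kinase that activates AKT, had a region of 668 bp with a fold over background, as the authors' peak caller gave it, of 5.83 and a significance, written as −log10 of the q-value, of 36.5. Its summit lay 84 bp from the start. Idh2, a mitochondrial isocitrate dehydrogenase mutated in myeloid leukemia, had a region of 1017 bp with a −log10 q of 18.4. At Slc3a2, the heavy chain of amino acid transporters, the region was 1297 bp wide with a −log10 q of 16.2. Arhgef3 had 13.4 and Elmo2, a partner of DOCK proteins in cell migration, 13.2. The region at Atp8b4, a lipid flippase gene, had 12.2 and that at Specc1 4.99. The nearest Smc3 wt peak to the 7 regions lay between 5134 bp away at Elmo2 and 70796 bp away at Specc1.

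The regions were peaks of moderate strength. Their −log10 q had a median of 8.06 (quartiles 5.47 and 11.5, range 1.69 to 46.7). Their fold over background, also the caller's, had a median of 3.26 (2.84 to 3.74) and a highest value of 7.75. The number of fragments piled up at the summit, recovered from fold and p-value, had a median of 40 (34 to 47). Of the regions, 1316 (52.6%) were scored on the genome-wide background of 10.6 and 1185 on a higher local background. Of the regions, 1226 (49.0%) were 400 to 499 bp wide and 105 (4.20%) were at least 1000 bp wide. Width and significance were only loosely tied, with a median −log10 q of 9.51 among the widest group and 7.48 among the 400 to 499 bp group.

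Gene-body peaks of the same minimum width that Smc3 wt shared stood well above them. These 2817 peaks had a median −log10 q of 20.4, a median fold of 4.60 and a median width of 657 bp. The 11244 narrower gene-body peaks in Smc3 het only stood below, with medians of 4.12, 2.65 and 218 bp. Their lower width is set by the choice, since all are under 400 bp. The 1121 wide peaks at gene ends in Smc3 het only had a median −log10 q of 8.85, and the 2428 between genes 7.93. Of the 14830 most significant Smc3 het peaks, as many as the whole Smc3 wt list held, 597 were regions described here. That was 23.9% of the regions, against 77.7% of the shared wide gene-body peaks and 7.86% of the narrower ones.

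**Figure D1:**
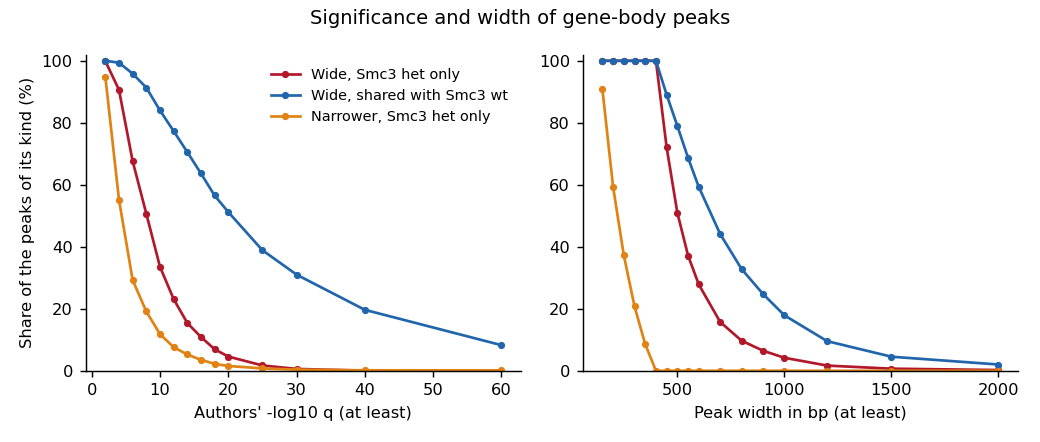
Share of gene-body peaks (y axis, percent of the peaks of its kind) at or above a given authors' −log10 q (left) or width in bp (right), for 2501 wide peaks in Smc3 het only, 2817 wide peaks shared with Smc3 wt and 11244 narrower peaks in Smc3 het only. The curve of the wide Smc3 het peaks lies between the other two in −log10 q, with medians of 8.06, 20.4 and 4.12.

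Whether a wide Smc3 het peak had a Smc3 wt counterpart varied steeply with its significance. Among peaks of 400 bp or more the share without one was 47.0% in gene bodies (2501 of 5318), 53.6% between genes (2428 of 4527) and 14.6% at gene ends (1121 of 7656). Among narrower gene-body peaks it was 92.8%. In gene bodies the share without a counterpart was 89.0% at a −log10 q below 5, 74.4% from 5 to 10, 44.0% (interval 41.6 to 46.4) from 10 to 20 and 7.38% at 20 or more. In the class from 10 to 20 it was 47.5% between genes and 25.3% (23.1 to 27.7) at gene ends. Within 1 class of significance, wide peaks in gene bodies thus lay close to those between genes and above those at gene ends, except below 5, where gene ends had 90.4%.

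**Figure D2:**
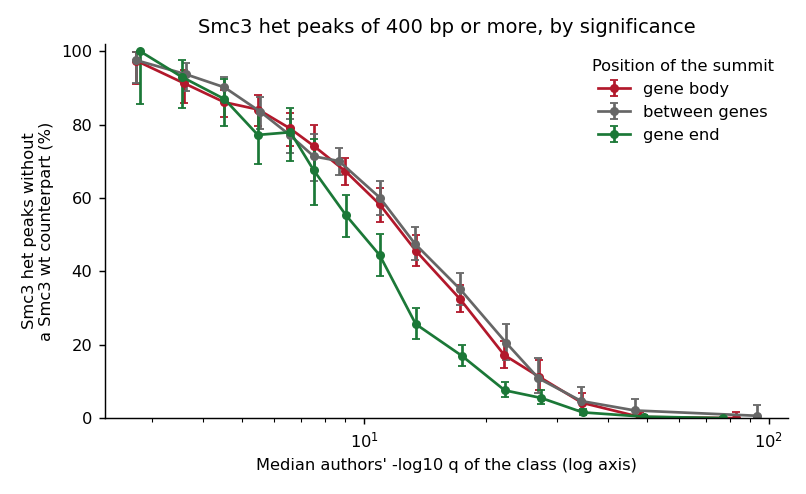
Share of Smc3 het peaks of 400 bp or more without a Smc3 wt counterpart (y axis, percent) against the median authors' −log10 q of the class (x axis, log scale), with exact 95% intervals, for summits in gene bodies, between genes and at gene ends. The share is lower at higher significance in all 3 positions, and between a −log10 q of 8 and 40 the gene-end curve lies lowest, at 44.4% against 58.3% in gene bodies in the class from 10 to 12.

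By the choice no region overlapped a Smc3 wt peak, and most lay far from one. The nearest Smc3 wt peak was a median of 28320 bp away (quartiles 10286 and 76999 bp), and 606 regions (24.2%) had one within 10 kb. Only 61 (2.44%) had one within 500 bp and 113 within 1 kb. The closest gap was 17 bp. Other peaks in Smc3 het only had medians of 25356 bp (narrower gene-body peaks), 23886 bp (wide, gene ends) and 62064 bp (wide, between genes). Of the narrower gene-body peaks 26.6% had a Smc3 wt peak within 10 kb. Another Smc3 het peak was nearer to the regions, at a median of 7633 bp, in a list of 47233 peaks against 14830. The regions were seldom neighbours of each other, with 38 adjoining pairs within 1 kb and 143 within 10 kb.

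The 10 most significant regions lay in Tram2, Adgrl2, Slc2a3, Pdpk1, Bcr, Ubr4, Tlcd4, Slc10a7, Dntt and Kcmf1. The first, in Tram2 (chromosome 1, 21014549 to 21015046), had a −log10 q of 46.7, a fold of 7.75 and 89 fragments at its summit, and the nearest Smc3 wt peak was 63834 bp away. Adgrl2, an adhesion G-protein-coupled receptor, had a region at 148918320 to 148918778 of chromosome 3 with a −log10 q of 37.0. Slc2a3, a glucose transporter, had one at 122758491 to 122759036 of chromosome 6 with 36.9. All 10 had folds of at least 5.83 and none had a Smc3 wt peak within 10 kb.

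Among these genes, Bcr and Dntt are known from blood cells. Bcr, the partner of ABL1 in the fusion of chronic myeloid leukemia, had its region at 75146074 to 75146627 of chromosome 10, with a −log10 q of 36.1, at 23751 bp from any Smc3 wt peak. Dntt, the terminal transferase of lymphoid progenitors, had its region at 41030977 to 41031387 of chromosome 19, 1935 bp inside the gene, with a −log10 q of 34.1. Ubr4 and Kcmf1, both genes of ubiquitin ligases, had 35.9 and 32.8. Tlcd4 had 35.2 and the solute carrier gene Slc10a7 had 35.1. Of the 10 regions, that of Pdpk1 covered the start of its own gene's transcript.

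The 5 widest regions were of ordinary strength. Map6, a microtubule-stabilizing protein gene, held the widest, of 3047 bp (chromosome 7, 99296870 to 99299916), with a −log10 q of 9.79. Fank1 had 2475 bp with 9.13, and Fbxo25, a ubiquitin ligase subunit gene, 2350 bp with 7.88. Kcnab1, a potassium channel subunit gene, had 2168 bp with 12.8, and Arid1b, a subunit gene of the BAF chromatin remodeller, 2163 bp with 12.2. None of the 5 was among the 10 most significant.

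At the width limit the choice cut through a continuum. Just outside, 25 gene-body peaks in Smc3 het only were 399 bp wide, with a median fold of 3.18 and a median −log10 q of 7.51. Just inside, 17 were 400 bp wide, with medians of 3.01 and 5.96. In genome order the first 3 outside lay in Csrp1, Specc1l and Lif, with −log10 q of 10.9, 23.2 and 7.13. The first 3 inside lay in Nemp2, Nek7 and Npl, with 4.52, 8.06 and 13.3.

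Along the gene the regions were spread nearly evenly. For 1986 regions in 1 gene of known strand, 1070 (53.9%, interval 51.7 to 56.1) were nearer to the 5′ end, the start of the gene. Among the shared wide peaks 65.2% (63.1 to 67.1) were, and among the narrower peaks 52.0%. Within 10 kb of the 5′ end lay 23.2% of the regions, 37.5% of the shared and 24.3% of the narrower peaks. Within 10 kb of the 3′ end lay 19%, 17.8% and 21.4%.

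Within each of 4 classes of significance the share near the 5′ end was lower among the regions than among the shared peaks, with separate intervals in 1 class. In the class of −log10 q from 10 to 20, 49.8% (45.7 to 54.0) of the regions and 61.4% (57.8 to 65.0) of the shared peaks were nearer to the 5′ end. At 20 or more these shares were 60.2% (49.8 to 70.0) and 69.2% (66.4 to 71.8), with intervals that overlap. That class is open-ended and not matched in strength. Of wide gene-body peaks with a −log10 q from 40 to 60, 1 of 322 was a region, and at 60 or more 0 of 233. From 5 to 10 they were 54.2% and 59.5%, and below 5 they were 57.2% and 61.8%, again with overlapping intervals.

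**Figure D3:**
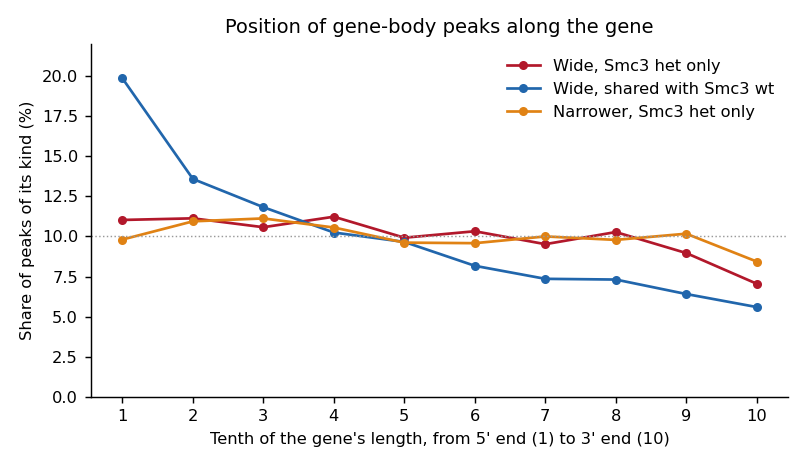
Share of gene-body peaks (y axis, percent of the peaks of its kind) in each of 10 equal steps from the 5′ end to the 3′ end of the gene (x axis), for wide peaks in Smc3 het only, wide peaks shared with Smc3 wt and narrower peaks in Smc3 het only. In the first step lie 11%, 19.9% and 9.81%, and the dotted line marks an even spread.

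Internal transcript starts were less frequent under the regions than under shared peaks. Of 2435 regions on chromosomes of the start table, 126 (5.17%, interval 4.33 to 6.13) covered an annotated start. Among shared wide gene-body peaks 690 of 2725 (25.3%, 23.7 to 27.0) did, among narrower gene-body peaks 1.89%, among wide gene-end peaks in Smc3 het only 47.6% and among those between genes 1.5%. Within classes of significance the regions were lower too, at 3.22% against 7.58% of shared peaks below 5, 4.24% against 11.2% from 5 to 10, 7.61% against 15.3% from 10 to 20 and 7.96% against 36.4% at 20 or more. Only below 5 did the intervals overlap. The class of 20 or more is open-ended and not matched in strength, since 0 of 233 wide gene-body peaks at 60 or more were regions. Of the 126 regions, 103 covered a start of their own host gene and 23 only that of another gene. The share was 8.81% (6.69 to 11.3) in the most significant of 4 equal classes of the regions and 3.31%, 4.76% and 3.78% in the others, from low to high.

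The base composition of these starts was nearer to that of starts under shared peaks than to that of internal starts under no peak. The 140 windows under the regions had a median of 60.8% G and C and 18.5 CpG pairs. The 847 windows under shared wide peaks had 63.3% and 24, and the 5177 internal starts under no peak had 50.3% and 5. Between these lay the 222 windows under narrower gene-body peaks in Smc3 het only, with 56.7% and 11.5. ETS letters stood in 27.9% of the windows under the regions (interval 20.6 to 36.1), in 29.4% of those under shared peaks and in 23.8% of all 32851 promoter windows. The CTCF core stood in 17.1% (11.3 to 24.4), 16.5% and 10.6%, and GATA letters in 4.29% (1.59 to 9.09), 5.19% and 11.2%. RUNX letters stood in 15.7%, 13% and 16.8%, AP-1 letters in 6.43%, 5.19% and 7.81%, and C/EBP letters in 10%, 7.91% and 10.8%. G-rich motifs such as the CTCF core move with base composition, and the part of composition in these shares was not tested.

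The genes that held the regions were long. Of 20665 protein-coding genes on chromosomes 1 to 19, 2012 (9.74%) held at least 1, and their median length was 72152 bp, against 15302 bp in the other genes. The share of genes with a region was 35.9% (33.8 to 38.0) in the longest of 10 equal length classes, 19.5% in the next and 0 of 2068 in the shortest, whose genes, of up to 1703 bp, are too short to hold one by the definition used. Of the 2012 genes, 1618 held 1 region, 307 held 2 and 87 held 3 or more.

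**Figure D4:**
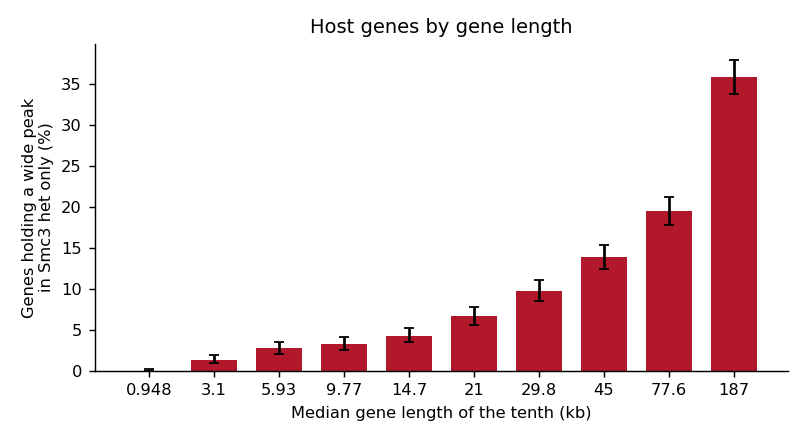
Share of protein-coding genes that held a wide gene-body peak in Smc3 het only (bars, percent, with exact 95% intervals) in 10 classes of equal gene number, ordered by length, with the median length in kb on the x axis. The share climbs with length to 35.9% in the longest class.

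Peaks at the ends of these genes were about as often present in both genotypes as in other genes of their lengths. A Smc3 wt summit lay within the span of 987 of the 2012 genes (49.1%), with summits near a gene end counted too. The share in other genes of the same lengths was not computed. At 802 of the 2012 genes (39.9%) both lists had a gene-end peak, near the 40.5% of other genes of the same lengths. At 396 the gene end had a peak in Smc3 het alone (19.7%, interval 18 to 21.5), against 15.6% of other genes of the same lengths. It had one in Smc3 wt alone at 5 and in neither list at 809 (40.2%, against 43.7%). A shared wide gene-body peak was held by 584 of the genes (29.0%), against 18.8% of other genes of the same lengths.

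Gse1, which encodes a protein of a histone deacetylase complex, held the most regions, 10, with −log10 q from 2.82 to 13.3. Of the 29 Smc3 het summits inside Gse1 these 10 were wide and unmatched, 3 belonged to shared wide peaks, and the Smc3 wt list had 5 summits there. Of its regions 3 stood close together at 120368757 to 120372184 of chromosome 8, with −log10 q of 3.98, 11.5 and 11.2. Another, at 120536988 to 120537472, covered an internal start of the gene. Ulk4 held 7, of which 4 stood between 121221044 and 121234386 of chromosome 9 with Smc3 wt peaks 724 to 2886 bp away.

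Trio held 6 regions and Arid1b 5, up to a −log10 q of 17.0 and 19.2. Ttc28, Sgms1, a sphingomyelin synthase gene, and Inpp5a, an inositol phosphatase gene, held 5 each. Inpp5a had 12 Smc3 het summits and 0 Smc3 wt summits inside it, although both lists had a peak at an end of it. Sema4b, a semaphorin gene, held 4 regions in only 39777 bp, the strongest at 80209680 to 80210210 of chromosome 7 with a −log10 q of 27.9, and had 5 Smc3 het and 0 Smc3 wt summits inside. Zfp993 with 6 and Gm21154 with 5 lie in families of near-identical genes, where reads cannot be placed with certainty.

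Genes were grouped in 25 lists, of blood regulators, signalling and cell type markers but also of long neural and housekeeping genes. Of the 430 listed genes, 106 (24.7%, interval 20.7 to 29.0) held a region. Genes of the same lengths gave 15.6%, and the background over all genes was 9.74%. The lists were drawn up with earlier results of these data known, and not only for genes known in these cells, so their counts are a description. Shared wide gene-body peaks were present at 24.4% of the listed genes, against 16.5% at the same lengths. Where the Smc3 het list was limited to its 14830 most significant peaks (equal list length), 33 of the 430 listed genes (7.67%) held a region. At that setting 567 of all 20665 genes did, so low counts in single lists go with a lower background. Shares at the same lengths were not computed there.

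Among transcription factors, the ETS family held regions in 4 of 13 genes (30.8%, interval 9.09 to 61.4, against 18.5% at the same lengths). Fli1, the ETS factor in the title of the study, held 2, at 32516408 to 32516810 and 32521228 to 32521991 of chromosome 9, with −log10 q of 4.0 and 10.7 and Smc3 wt peaks 23395 and 18214 bp away. Elf2 held 3, with 11.9, 12.8 and 23.2, and Etv6, an ETS repressor, 2 with 3.22 and 8.96. The Fli1 regions lay 26923 and 21984 bp from the nearest gene end. Erg, a stem-cell ETS factor, held 0 regions and 2 shared wide peaks. Over the family more genes held a shared wide gene-body peak, 7 of 13 (53.8%, against 19.7% at the same lengths). At equal list length 1 of the 13 held a region.

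The core-binding factor list, of the genes and partners of the factor that inv(16) alters, held regions in 3 of 8 genes (37.5%, interval 8.52 to 75.5, against 24.2% at the same lengths) and, at equal list length, in 0 of 8. Runx2 had 2, with −log10 q of 8.61 and 3.21, and the second lay 752 bp from a Smc3 wt peak. Runx3 had 2 adjoining regions at 135152024 to 135153387 of chromosome 4, with 4.43 and 4.88 and the nearest Smc3 wt peaks 31429 and 32267 bp away. Cbfa2t3, a corepressor gene, had 1 with 4.61. Runx1 itself had 0 regions and 5 shared wide gene-body peaks.

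Stem-cell transcription factors and self-renewal genes held regions in 10 of 26 genes (38.5%, interval 20.2 to 59.4), against 15% at the same lengths. Shared wide peaks were present in 5 of the 26, or 19.2%, against 15.5%. At equal list length 0 of the 26 held a region, and at a width of 600 bp or more 3 did. Mecom, a zinc-finger factor that maintains stem cells, held 2, with −log10 q of 6.98 and 11.5, and the second lay 1333 bp from the gene's 5′ end. Msi2, an RNA-binding regulator of stem cells, held 1 with 11.5, and Hoxa9, a homeobox factor of leukemia, 1 with 10.2 at 1237 bp from its 5′ end. The others were Tal1, Hoxa10, Mycn, Zfpm1, Hmga2, Trib2 and Plag1, with −log10 q between 3.8 and 8.2.

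Myeloid fate factors held regions in 6 of 19 genes (31.6%, interval 12.6 to 56.6), against 8.82% at the same lengths. Shared wide peaks were present in 5 of the 19 (26.3%, against 9.85%), and at equal list length 1 of the 19 held a region. Bach2, a repressor in lymphoid and myeloid choice, held 3 with −log10 q of 9.26, 5.47 and 4.83. Klf4, a factor of monocytes, held 2 neighbouring regions in its short gene, at 55530181 to 55530899 and 55531085 to 55531524 of chromosome 4, with 13 and 4.66. Zeb2, a zinc-finger repressor, held 1 with 8.06, and Rara, Rxra and Ikzf1 held 1 each below 5. The nearest Smc3 wt peaks to the Klf4 regions were 15120 and 16024 bp away.

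Among receptors and their pathways, the counts were nearer to those at the same lengths. Growth factor receptors had 2 of 20 (10%, against 14.2%), which were Igf1r with a −log10 q of 16.1 and the cytokine receptor gene Flt3 with 3.21. Kinase, RAS, PI3K and JAK-STAT genes had 12 of 41 (29.3%, against 21.6%), and 15 of the 41 held a shared wide peak. Map3k1, a kinase above JNK, had a region of 884 bp with 26.8, and Inpp5d, the SHIP phosphatase of blood cells, had 2 with 3.92 and 14.2. Prkcb, a protein kinase C gene, had 2 with 6.47 and 7.98.

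Feedback inhibitors had 3 of 15 (20%, interval 4.33 to 48.1, against 7.05%). NF-κB and inflammation genes had 3 of 20 (15%, interval 3.21 to 37.9, against 8.12%). Both intervals held the share at the same lengths. Spred2, an inhibitor of RAS signalling, held 4 regions within 19961066 to 19987466 of chromosome 11, with −log10 q of 5.96, 8.39, 16.1 and 14.1. The phosphatase genes Dusp4 and Dusp16 held 1 each, with 9.37 and 5.34, and the Dusp4 region lay 617 bp from a Smc3 wt peak. Nfkb1, an NF-κB subunit, held 3 with 2.94, 4.62 and 7.50, with Smc3 wt peaks 97617 to 134959 bp away. The cytokine gene Tnf held 1 with 19.1, which lay 1041 bp from a Smc3 wt peak, and the adaptor gene Traf1 1 with 7.47.

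Integrin and adhesion genes had 3 of 23 (13%, against 15%), which were Itga9 with 21.7, Pecam1 with 10.9 and Cd9 with 8.91. Stem-cell surface and niche genes had 3 of 18 (16.7%, interval 3.58 to 41.4, against 9.87%). Angpt1, the ligand of the receptor Tek, had 2 with 14.1 and 3.21, the second 211 bp from a Smc3 wt peak, while Cd44 had 2 with 7.51 and 2.23 and Tek 1 with 4.99.

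Chromatin and cohesin genes lay close to their length background. Chromatin regulators mutated in myeloid leukemia had 7 of 25 (28.0%, against 23.4%), with 10 of 25 holding a shared wide peak. Tet3, a DNA demethylase, had a region over an internal start with a −log10 q of 19.9. Hdac4, a histone deacetylase, had 2 with 15.1 and 4.52, and Dnmt3a, a DNA methyltransferase, 2 with 4.67 and 4.92. The cohesin complex and its regulators had 2 of 12 (16.7%, against 17.9%), the loader Nipbl with 12 and the regulator Pds5a with 10.8, and Smc3 itself had 0. Survival and cell cycle genes had 3 of 20 (15%, against 11.3%) and 9 of 20 with a shared wide peak (45.0%, against 12.2%). The 3 were the p53 inhibitor gene Mdm2 with 12.2, the apoptosis activator gene Bbc3 with 6.97 and the cell-cycle kinase gene Cdk6 with 16.2.

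Each list of markers of mature blood cells had between 1 and 3 genes with a region. Their shares lay above those at the same lengths, except that megakaryocyte and mast cell markers were level with theirs. The exact interval of each of these lists held the share at the same lengths. It was 4.66 to 50.8 for monocyte and macrophage markers and 5.04 to 53.8 for dendritic cell and MHC class II genes. Monocyte and macrophage markers had 3 of 14 (21.4%, against 12%), which were Klf4, the chemokine receptor gene Cx3cr1 with 11.1 and the mannose receptor gene Mrc1 with 8.06. Dendritic cell and MHC class II genes had 3 of 13 (23.1%, against 10.6%) and 0 of 13 with a shared wide peak. Zbtb46 and Batf3, factors of dendritic cells, had best values of 6.98 and 9.18. Megakaryocyte markers had 1 of 12 (8.33%, against 8.25%), which was Vwf. Mast cell, basophil and eosinophil markers had 1 of 13 (7.69%, against 7.71%), Hdc, and neutrophil markers 1 of 14 (7.14%, against 2.36%), Mmp9. Erythroid markers had 2 of 12 (16.7%, against 9.03%), Car2 and Ank1. B cell markers had 2 of 13 (15.4%, against 11.9%), Dntt and Ebf1, and T and NK cell markers 2 of 15 (13.3%, against 10.6%), Themis and Lck. The region in Vwf lay 355 bp and that in Car2 415 bp from a Smc3 wt peak.

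The lists of genes not tied to these cells held regions as well. Long neural genes, which blood cells hardly use, had 13 of 24 (54.2%, interval 32.8 to 74.5), against 35.9% at the same lengths, with Fam155a holding 4 and Cntnap2 and Lsamp 3 each. The length classes are coarse there, since these genes have a median of 1330 kb and the longest class is open-ended. Housekeeping genes had 2 of 12 (16.7%, interval 2.09 to 48.4, against 4.15%), Actb and Gapdh, whose regions lay 285 and 542 bp from a Smc3 wt peak. Stromal and endothelial markers had 2 of 14 (14.3%, against 17.6%), Flt1 with 12.2 and Pecam1.

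**Figure D5:**
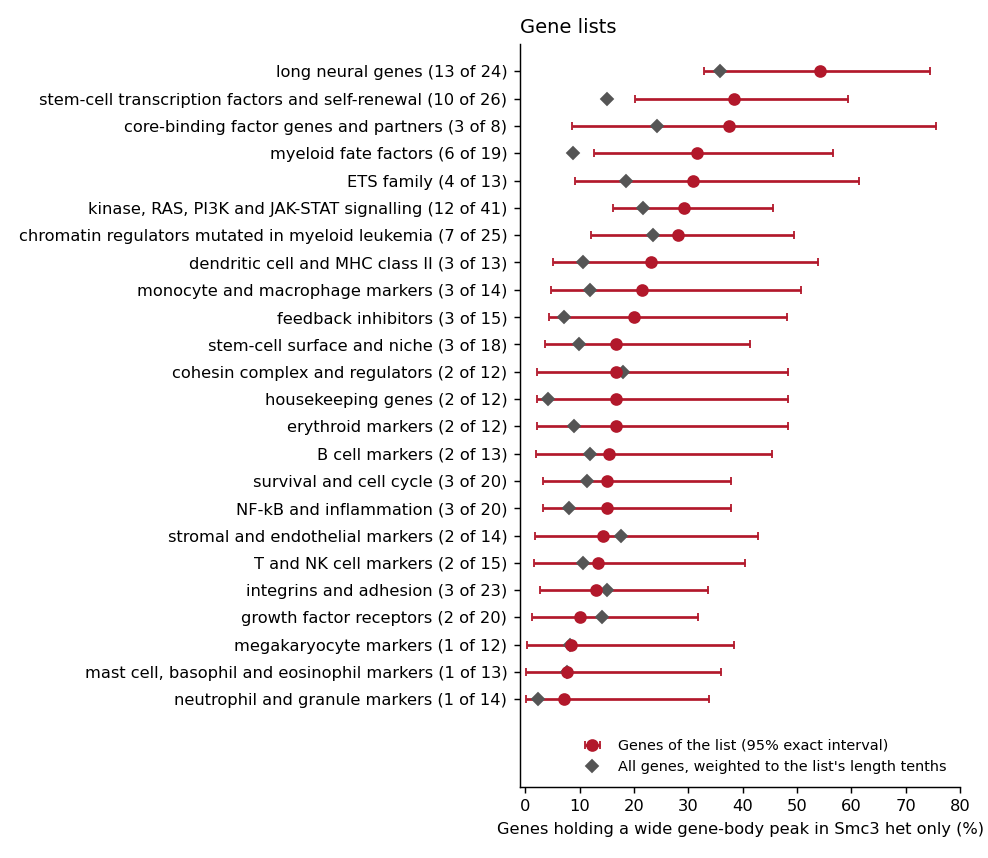
Share of genes in each of 24 lists that held a wide gene-body peak in Smc3 het only (circles, percent, with exact 95% intervals), beside the share among all genes weighted to the list's length classes (diamonds). Among the lists shown, those of stem-cell transcription factors and myeloid fate factors have intervals that lie above their diamond, at 38.5% and 31.6%. At equal list length 0 of 26 and 1 of 19 of their genes held a region, against 567 of all 20665 genes.

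Over all genes, 14.4% had a peak at a gene end in Smc3 het only and 38.9% in both lists. Among monocyte and macrophage markers 7 of 14 had a peak at a gene end in Smc3 het only and 2 in both lists. Among dendritic cell and MHC class II genes 8 of 13 had one in Smc3 het only and 2 in both. The numbers in Smc3 het only were 3 of 14 for neutrophil, 3 of 12 for megakaryocyte, 1 of 12 for erythroid, 1 of 13 for B cell, 1 of 15 for T and NK cell, 3 of 13 for mast cell and 4 of 14 for stromal and endothelial markers. Lists other than markers had such genes too, with 9 of 23 integrin and adhesion genes and 6 of 26 stem-cell transcription factors and self-renewal genes. Among stem-cell surface and niche genes, 4 of 18 had one in both lists, with Kit among them, and Cd34 had one in Smc3 het only. In bulk cells more cells of a type and more open chromatin per cell cannot be told apart, and the part of these markers in the counts was not tested.

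Over chromosomes the share of wide gene-body peaks without a Smc3 wt counterpart ranged between 41.8% (interval 34.0 to 49.9) on chromosome 18 and 56.3% (48.8 to 63.6) on chromosome 19. The interval of chromosome 19 lies just above the 47.0% of all such peaks. Chromosome 19 also had the most regions per Mb of gene, 3.68, and chromosome 14 the fewest, 2.00. The number of regions ranged between 66 on chromosome 18 and 193 on chromosome 2.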

How the data were processed

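ATAC-seq libraries were grouped by the genotype in their titles, 3 per genotype. Per the submitters' processing notes, Bowtie2, MACS2 and the build mm10 were used. Their versions, their settings and any pooling of libraries are unstated in the sources used here. Each genotype has 1 peak list of 10 columns with no header, deposited by the authors. The deposited score, fold (a ratio of summit to background), −log10 p, −log10 q and summit offset are the peak caller's own values. They were used only within a list, apart from the lowest fold at the genome background. The files hold no counts. The pileup was recovered as the whole number whose Poisson tail matched the deposited −log10 p within 0.01, which held for 99.7% of Smc3 het and 99.4% of Smc3 wt peaks.

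Peaks were compared at an overlap of 1 bp or more in Python 3.11.15 with pandas 2.3.3, numpy 2.4.6, scipy 1.17.1 and matplotlib 3.10.9, and the overlap code was checked on simulated data against bedtools 2.31.1. Genes came from the RefSeq gene table for GRCm38.p6, to which mm10 corresponds, and strands and internal starts from its promoter windows, which do not cover every chromosome. All 444 listed genes were found, 430 of them on chromosomes 1 to 19, and 1 of the 25 lists enters the totals but is not reported here. Shares at the same lengths weight 10 length classes of all genes to the genes in question. Motifs were planned for 300 bp around summits and were read in promoter windows instead, because no genome sequence was used here.

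The regions, the lists and the tests were chosen with earlier results of these data known. The text names the 10 regions of highest −log10 q, the 5 widest, the 10 genes with most regions, up to 3 genes per list with most regions and 3 peaks on each side of the width limit. Other named genes were chosen after their values were seen.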

Additional observations from a re-analysis of the deposited data

How the results depend on the processing

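There were 14 alternatives, and 48 of 70 values over all regions stayed within 1.5 times the count or within the interval of the share. The number of regions (2501) was 4834 at a width of 300 bp or more, 1275 at 500 bp, 697 at 600 bp and 597 at equal list length, where fewer peaks enter by construction. The number of genes (2012) was 3349, 1139, 658 and 567 under the same 4 settings. The share of regions whose gene had an end marked by a peak in both lists (40.5%) was 36.1% with a −log10 q of at least 5 in both lists and 42.9% with gene ends of 5 kb. The share that covered a transcript start (5.17%) was 3.72% with ends of every gene type, 6.79% and 8.01% at 500 and 600 bp, 7.16% with a −log10 q of at least 5, 8.72% at equal list length, and 4.11% and 3.4% with gene ends of 2 kb and 5 kb. The share of listed genes with a region (24.7%) was 37.4%, 14.7% and 8.60% at 300, 500 and 600 bp, 7.67% at equal list length and 18.4% with gene ends of 5 kb. Of 350 values of single lists, 304 stayed within the interval of the list. At equal list length the stem-cell transcription factors had 0 of 26 genes with a region, myeloid fate factors 1 of 19, core-binding factor genes 0 of 8 and the ETS family 1 of 13. Over all genes the count at that setting was 567 of 20665. The cause of these moves was not tested beyond the number of peaks that enter.

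No paired analysis was possible because the replicate numbers in the titles have no values per library in the lists used, and for the same reason no library was left out in turn. Without counts, a region absent from the Smc3 wt list may still hold open chromatin there below the peak caller's threshold. At the genome background listed Smc3 het peaks had a pileup of 23 or more and Smc3 wt peaks of 21 or more.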
